A study of Drosophila melanogaster with 2 samples.

Results

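The genes described here are 32 that encode Polycomb group proteins, trithorax group proteins, chromatin remodellers and replication-independent histones. They were taken by name out of 13968 protein-coding genes, and all 32 matched 1 annotated gene each. Chromatin immunoprecipitation with sequencing (ChIP-seq) had been done on whole Drosophila melanogaster embryos, 0 to 24 h old and of both sexes pooled. The embryos came from 1 transgenic line that stably makes the zinc-finger protein D19B joined at its C terminus to GFP, and an anti-GFP antibody pulled down the tagged protein. There were 2 libraries in 1 group, numbered biological replicates 2 and 3 in the labels, so no groups of samples can be compared. The promoter that drives the tagged protein is not given in the sources used here, and the control library behind the peak calls is not analysed here.

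Polycomb group proteins keep developmental genes silent through cell divisions, and trithorax group proteins keep them active. Polycomb repressive complex 2 (PRC2) methylates lysine 27 of histone H3, PRC1 compacts chromatin and ubiquitinates histone H2A, and Pho binds Polycomb response elements in DNA. Remodellers use ATP to move, evict or exchange nucleosomes. Histone variants are made outside replication and are placed into chromatin by such machines. These proteins are widespread in the fly embryo. Here the genes are read as places where D19B-GFP was or was not found, not as proteins that act with it.

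Peaks are those of the authors' list on the dm6 build from the irreproducible discovery rate (IDR) step, which rests on how alike replicates rank peaks. This list, called the combined list where heights are given, held 4309 peaks, and their signal, the authors' peak height over the control, ran from 117.1 to 15866.3 with a median of 199.5. Its peaks were the tallest of the 30000 regions called on both libraries together. A single peak in it therefore need not rank alike in the replicates. Each library also had a list of 30000 regions of its own, background regions included. These lists are not scaled to each other, and read depth is unknown from them. A summit within 500 bp of a transcription start site (TSS) counted as being at that TSS. Other summits in the gene or up to 2 kb beside it were counted apart, and "in reach" means either kind. Fewer nuclei with bound protein and less protein bound per nucleus cannot be told apart in whole embryos.

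Of the 32 genes, 6 had a summit at a TSS (18.75%), where 15.3% of all protein-coding genes had one. These were E(z), Su(z)12, brm, His2Av, His3.3B and His4r. Another 11 genes had summits elsewhere in reach and none at a TSS: Pc, Psc, Su(z)2, Pcl, phol, trx, ash1, mor, osa, kis and Mi-2. The remaining 15 genes had no summit in reach. The TSS share was thus near the background. The share in reach was 53.12% (17 of 32), where 30.6% of all protein-coding genes had a summit in reach.

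The 17 genes held 24 peaks, each counted for 1 gene. Only 6 of the 24 lay at the gene's own TSS, 10 lay elsewhere in the gene and 8 lay beside it. The median signal of the 24 was 316.9, with quartiles of 182.4 and 790.0, against 199.5 for all IDR peaks, and 16 of the 24 were above that median. The 10 peaks inside genes had a median of 455.8, the 8 beside genes 235.3, and the 6 at TSSs a median of 251.6. For comparison, all IDR peaks within 500 bp of any TSS had a median of 218.3 and all others 185.6. The 2 splits differ, as 5 of the peaks beside genes and 1 of those inside genes lay at another gene's TSS.

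**Figure D1:**
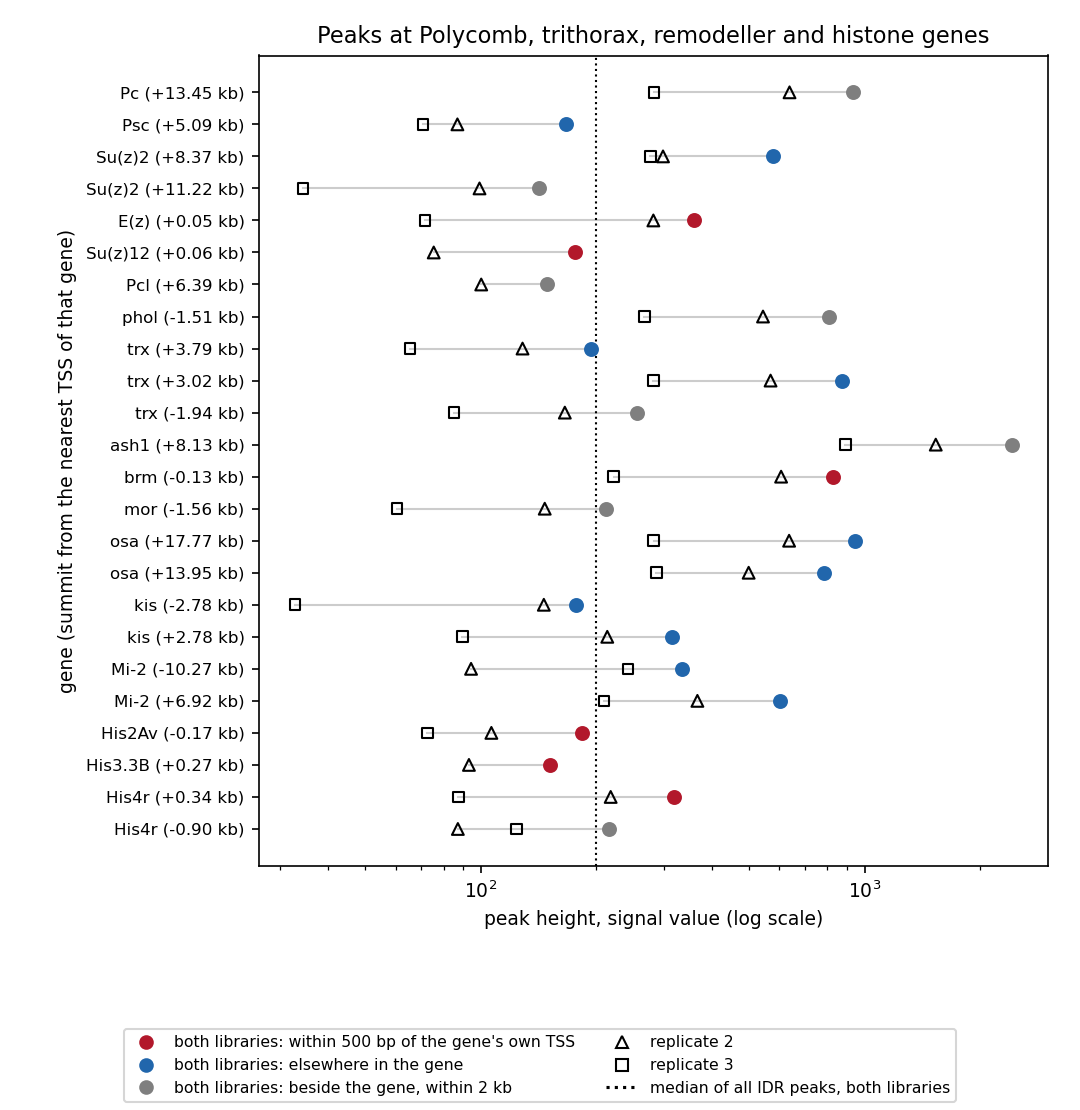
Height of each of the 24 peaks (log axis) in the list of both libraries (filled circles, coloured by where the summit lies) and in the lists of replicate 2 (triangles) and replicate 3 (squares); the dotted line is the median of all IDR peaks. The ash1 peak is the tallest at 2415.9, and only 1 of the 6 peaks at a gene's own TSS, that of brm, is above 400 in the combined list.

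Of the 6 PRC2 genes among the 32, 2 had a summit at a TSS, a count too small to set against the 15.3% of all protein-coding genes. At E(z) (FBgn0000629, 3L from 10634575 to 10638130, minus strand), which encodes the enzyme that methylates lysine 27 of histone H3, the summit lay on 3L at 10638080, 50 bp downstream of the TSS in the 5' UTR. Replicate 2 gave a height of 281.6 and replicate 3 one of 71.6, for a combined 359.9. It ranked 936 of 4309, and replicate 2 was 3.93 times as high as replicate 3. The TSS of Cnep1r2, which encodes a subunit of a nuclear envelope phosphatase, starts 16 bp away in the opposite direction, so the peak cannot be assigned to either gene.

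At Su(z)12 (FBgn0020887, 3L from 19918242 to 19923462, minus strand), the zinc-finger core subunit of PRC2, the summit lay on 3L at 19923405, 57 bp downstream of the TSS in the 5' UTR. The combined height was 175.8 and that of replicate 2 was 75.4, and replicate 3 had no region in reach of the gene. The prefoldin subunit gene Pfdn6 starts 209 bp away on the other strand, and the summit was 266 bp upstream of its TSS. Of the PRC2 peaks, that of E(z) was thus the one with a height in each library.

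The other PRC2 genes had no peak at their start. Pcl, which encodes a Tudor-domain accessory subunit, had a peak of 148.6 that lay 1823 bp beyond its 3' end and 438 bp into pAbp, the poly(A)-binding protein gene. Its height was 100.3 in replicate 2, and no replicate 3 region matched it. The paralogs esc and escl, which encode the subunit that reads methylated lysine 27, and Jarid2, which encodes an accessory subunit, had no summit in reach. The nearest IDR summits were 10610, 10689 and 8482 bp from these genes.

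Of the 5 PRC1 genes among the 32, 0 had a peak at a TSS, a count too small to set against the 15.3% of all protein-coding genes. Of 5 PRC1 partner genes outside the 32, 3 had a TSS summit, among them ph-p at 9619.7 and ph-d at 150.5. Pc (FBgn0003042, 3L from 21306138 to 21318020, minus strand) encodes the chromodomain subunit that binds methylated lysine 27. The only peak in its reach had a signal of 933.2 (637.2 in replicate 2 and 282.8 in replicate 3), and it lay 1563 bp beyond the 3' end of the gene. That summit was 83 bp downstream of the TSS of CG11309 and 122 bp upstream of that of CG7632, and 13445 bp from the start of Pc. It stands for those genes as much as for Pc.

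The neighbouring paralogs Psc and Su(z)2, which encode RING-finger subunits, each had a peak in an intron. The Su(z)2 summit on 2R at 13005489 was 8366 bp downstream of the nearest TSS, at a combined height of 576.9, ranked 447. Its heights of 298.4 and 276.5 in replicates 2 and 3 were close to equal, whereas most IDR peaks were higher in replicate 2. The Psc summit at 12975572 was 5086 bp downstream of a TSS, with 166.3 in the combined list, 87.0 in replicate 2 and 70.7 in replicate 3. A second, lower Su(z)2 peak (142.2) lay 428 bp beyond the 3' end. Sce, which encodes the ubiquitin ligase of PRC1, and Scm, which encodes a SAM-domain partner, had no summit in reach.

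Of the 3 genes of the Pho complex 1 had a summit in reach, and of the 2 deubiquitinase genes 0 had one, counts too small to set against the 30.6% of all protein-coding genes. The YY1-related genes pho and phol encode the factors that bind Polycomb response elements. The single peak, near phol, lay 1515 bp upstream of its start with a signal of 807.0, 543.5 in replicate 2 and 266.8 in replicate 3. It was 116 bp from a CG3552 TSS and 127 bp from the CG3437 TSS. On the dot chromosome, pho had its nearest IDR summit 25937 bp away. Sfmbt, which encodes the partner of Pho, and Asx and caly, which encode the deubiquitinase of histone H2A, had no summit in reach.

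**Figure D2:**
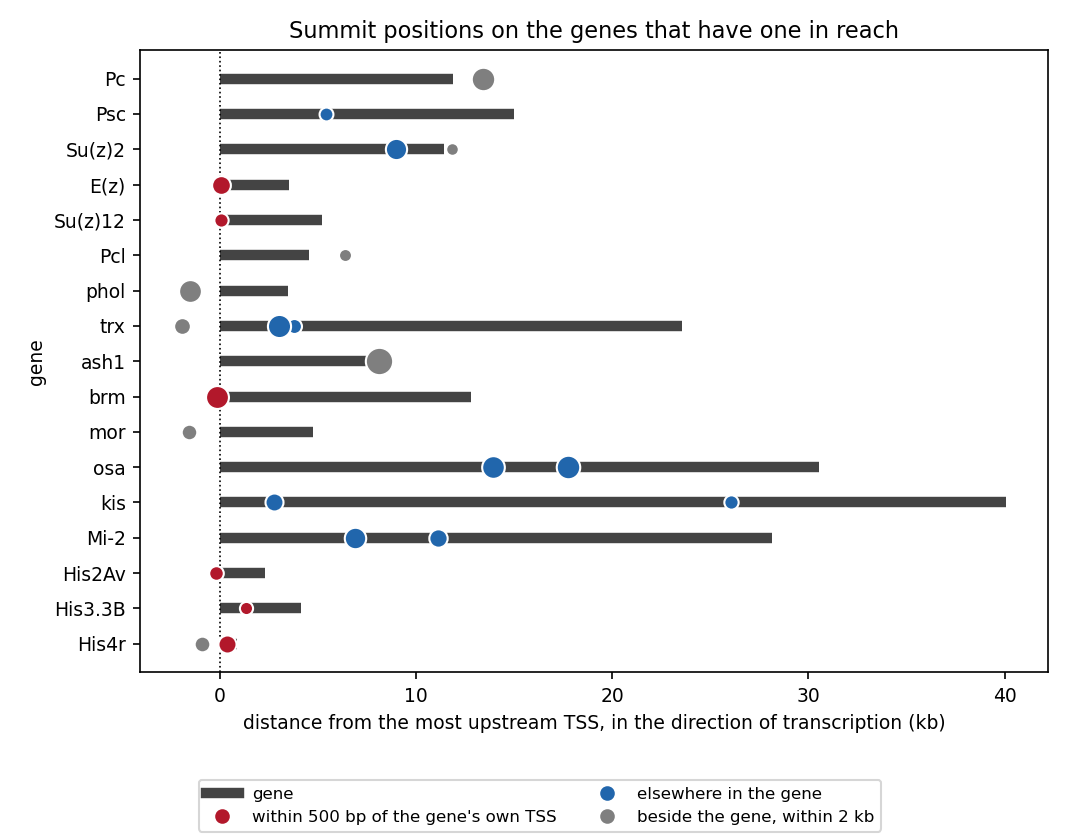
Position of the 24 summits on the 17 genes, in kb from each gene's most upstream TSS in the direction of transcription; bars are the genes, colours give where the summit lies and larger points mark taller peaks on a log scale. Summits of trx (1 upstream peak apart), osa, kis and Mi-2 lie in the body of long genes, and those of Pc, Pcl, phol, ash1 and mor lie off the gene.

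Of the 3 trithorax methyltransferase genes, trx and ash1 each had a tall peak in reach, that of ash1 beside the gene, and ash2 had none. The count is too small to set against the 30.6% of all protein-coding genes in reach. trx (FBgn0003862, 3R from 14263358 to 14286903, minus strand) encodes a methyltransferase for lysine 4 of histone H3. Its tallest summit, on 3R at 14283880, lay in an intron 3023 bp downstream of the TSS, with a signal of 870.6, 568.7 in replicate 2 and 281.7 in replicate 3. A lower intronic peak (193.5) lay at 3785 bp, and another (254.7) lay 1937 bp upstream of the start, 231 bp from the TSS of red. In each of these peaks replicate 2 was 1.94 to 2.02 times as high as replicate 3.

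ash1 (FBgn0005386, 3L from 19590773 to 19598755, minus strand) encodes a methyltransferase for lysine 36 of histone H3, and the peak beside it was the tallest of the 24. Its summit, on 3L at 19590625, had a signal of 2415.9, ranked 32 of 4309, and reached 1531.5 in replicate 2 and 890.8 in replicate 3. It lay 148 bp beyond the 3' end of ash1, 8130 bp from its start and 101 bp upstream of the TSS of CG14100. Neither library's list nor the list of both held any other region in reach of ash1. ash2, a core subunit gene of the COMPASS methyltransferases, had none in any of these lists.

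Each of the 3 SWI/SNF genes among the 32 had a summit in reach. The count is too small to set against the 30.6% of all protein-coding genes. Of those of 10 kb or more, as brm and osa are, 55.3% had a summit in reach. Of 11 SWI/SNF partner genes, 1 had a TSS summit and 1 a summit elsewhere in reach. brm (FBgn0000212, 3L from 15970082 to 15982869, minus strand) encodes the ATPase of the complex, and its summit on 3L at 15982996 was 127 bp upstream of the TSS. Its height was 605.8 in replicate 2, 221.8 in replicate 3 and 825.8 combined, which ranked 238. Arl1, a Golgi GTPase gene, starts 266 bp away in the opposite direction, and the summit lay between the starts of both genes.

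osa (FBgn0261885, 3R from 17687818 to 17718350, minus strand) encodes the ARID subunit of SWI/SNF, and it had 2 tall intronic peaks and none at its start. The summit on 3R at 17700581 was 17769 bp downstream of the TSS, with 943.6 in the combined list, 635.6 in replicate 2 and 282.2 in replicate 3. The start of the non-coding RNA gene lncRNA:CR46036 was 160 bp from it. The other summit, at 17704399, was 13951 bp downstream of the TSS, with 784.3, 498.7 and 286.6 in the same order. Both libraries thus placed these peaks among their tallest, at ranks 177 and 283 of 30000 in replicate 2 and 254 and 242 in replicate 3. mor, which encodes the SANT-domain scaffold subunit, had a lower peak (212.0, with 146.8 and 60.5 in replicates 2 and 3) 1557 bp upstream of its start, inside the neighbouring gene Hel89B, and so out of a reach of 1 kb.

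Summit windows of 101 bp are shown for 5 of these peaks, chosen because they are the tallest away from annotated exons (ash1, osa, trx and brm) or stand farthest toward replicate 3 (Mi-2, described after them). They are read 5' to 3' from the plus strand of dm6 in the RefSeq copy of the genome, and capitals mark any of the 6 words searched on both strands. These were TATCGATA (site of the factors BEAF-32 and DREF), the shorter CGATA that it contains, the TATA-box word TATAAA, the GAGA factor word GAGAG, the Pho core word GCCAT and the longer word ACAGGGTA.
ash1, 3' side, chr3L:19590575-19590675: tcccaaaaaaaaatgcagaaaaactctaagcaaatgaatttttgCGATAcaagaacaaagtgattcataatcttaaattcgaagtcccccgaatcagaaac
osa, intron, chr3R:17700531-17700631: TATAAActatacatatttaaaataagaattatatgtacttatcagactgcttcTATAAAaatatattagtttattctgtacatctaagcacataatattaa
trx, intron, chr3R:14283830-14283930: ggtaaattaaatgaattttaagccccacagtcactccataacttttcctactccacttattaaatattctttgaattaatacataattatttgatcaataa
brm, promoter, chr3L:15982946-15983046: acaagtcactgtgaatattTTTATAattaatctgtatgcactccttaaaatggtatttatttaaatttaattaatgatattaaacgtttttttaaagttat
Mi-2, intron, chr3L:19899035-19899135: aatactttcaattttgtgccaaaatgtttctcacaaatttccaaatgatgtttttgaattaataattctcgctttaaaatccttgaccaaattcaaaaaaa

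These windows are rich in A and T, whereas the 24 windows as a whole ran from 18.8% to 58.4% GC. The GC content was 18.8% in the osa and brm windows, 24.8% in that of Mi-2, 25.7% in that of trx and 32.7% in that of ash1. Over the 24 peaks the median was 31.2%, against 32.7% for all IDR summits, and 45.05% in windows centred 500 bp to each side of the 24. On either strand, TATAAA stood in 6 of the 24 windows (25%, against 22.5% of all IDR windows), CGATA in 2 (8.33% against 13.3%) and GCCAT in 2 (8.33% against 12.7%). The other words stood in 0 of the 24: TATCGATA was in 0.998% of all IDR windows, the GAGA factor word in 8.73% and ACAGGGTA in 2.97%. A match is only a match of letters, and its absence says nothing about the factor.

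Of the 6 other remodeller genes, kis and Mi-2 had intronic summits and Iswi, Acf, Chd1 and dom had none in reach. That is 2 of 6 (33.3%), a count too small to set against the 30.6% of all protein-coding genes in reach. Mi-2 (FBgn0262519, 3L from 19882051 to 19910215, minus strand) encodes the ATPase of the NuRD complex. Its taller summit, on 3L at 19903293, was 6922 bp downstream of the nearest TSS, with 603.5 in the combined list, 366.7 in replicate 2 and 209.4 in replicate 3. The other, at 19899085, had the lowest ratio of replicate 2 to replicate 3 among the 21 peaks found in both, 0.390: its height was 94.4 in replicate 2 and 241.7 in replicate 3, and 334.7 in the combined list. Its rank was 343 in replicate 3 and 3430 in replicate 2. Both summits also lie within Su(Tpl), a gene that overlaps Mi-2.

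kis (FBgn0266557, 2L from 210735 to 250823, minus strand), which encodes a CHD-family remodeller of the trithorax group, is the longest of the 32 genes at 40.1 kb. The summit on 2L at 248040 was 2783 bp downstream of the nearest TSS, with 314.8 in the combined list, 213.6 in replicate 2 and 89.7 in replicate 3. A lower peak (177.0) lay farther into the gene, and its height of 146.0 in replicate 2 was 4.45 times its height in replicate 3.

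Of the 4 histone genes, 3 had a summit at a TSS, at combined heights from 151.8 to 319.1. The count is too small to set against the 15.3% of all protein-coding genes. With a TSS window of 200 bp, only His2Av among them kept a TSS summit. His2Av (FBgn0001197, 3R from 26866929 to 26869220, plus strand) encodes the only fly variant of H2A, which serves as both H2A.Z and H2A.X. Its summit on 3R at 26866754 was 175 bp upstream of the TSS, with 184.1 in the combined list, 106.6 in replicate 2 and 72.6 in replicate 3. The start of ball, a histone kinase gene, is 122 bp from that of His2Av on the other strand, and the summit lay 53 bp inside ball.

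His4r (FBgn0013981, 3R from 14625755 to 14626614, plus strand), a histone H4 gene outside the histone repeats, had a summit on 3R at 14626128, 340 bp downstream of the nearest TSS in the coding exon. Replicate 2 reached 218.0 there and replicate 3 reached 87.4, with 319.1 combined. A second summit (215.8) lay 901 bp upstream of the start inside put, a TGF-beta receptor gene that starts 85 bp from a His4r TSS on the other strand. At this second summit replicate 3 was the higher, with 124.0 against 87.2. His3.3A and His3.3B both encode the variant H3.3. Only His3.3B (FBgn0004828, X from 9152523 to 9156669, minus strand) had a peak, on X at 9155345 in an intron, 268 bp downstream of an internal TSS and 1324 bp from the most upstream one. Its signal was 151.8 in the combined list and 93.2 in replicate 2, with no match in replicate 3. The nearest summit to His3.3A was 2597 bp away.

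All but His3.3B among the 6 genes occupied at a TSS share their start with an opposite-strand protein-coding gene within 500 bp, an arrangement called a divergent promoter. Among all protein-coding genes occupied at a TSS, 48.4% had such a neighbour, and among all protein-coding genes 27.3%. The 32 genes have one more often, at 18 (56.2%). Read by promoter type, the genes were near the background: 5 of 18 with a divergent neighbour were occupied at a TSS (27.8%, against 27.1%), and 1 of 14 without one (7.14%, against 10.8%). Of the 13 genes with a divergent neighbour and no TSS peak, 4 had other summits in reach (phol, ash1, mor and Mi-2).

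The share in reach was also read by gene length. Of the 9 genes of 10 kb or more, 8 had a summit in reach, dom being the exception, against 55.3% of all protein-coding genes of that length. Of the 15 shorter than 5 kb, 7 had one (46.7%, against 24.6%), and of the 8 between these lengths, 2 had one (25%, against 39.6%). Whether length accounts for the higher share in reach was not tested. In 5 of the 11 genes counted in reach only (Pc, Pcl, phol, ash1 and mor), every summit lay beside the gene, and except at mor it was within 500 bp of another gene's TSS. With a reach of 1 kb these genes other than ash1 dropped out, and 7 genes in place of 11 had summits elsewhere only. The share of all protein-coding genes in reach was then 24.9%.

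**Figure D3:**
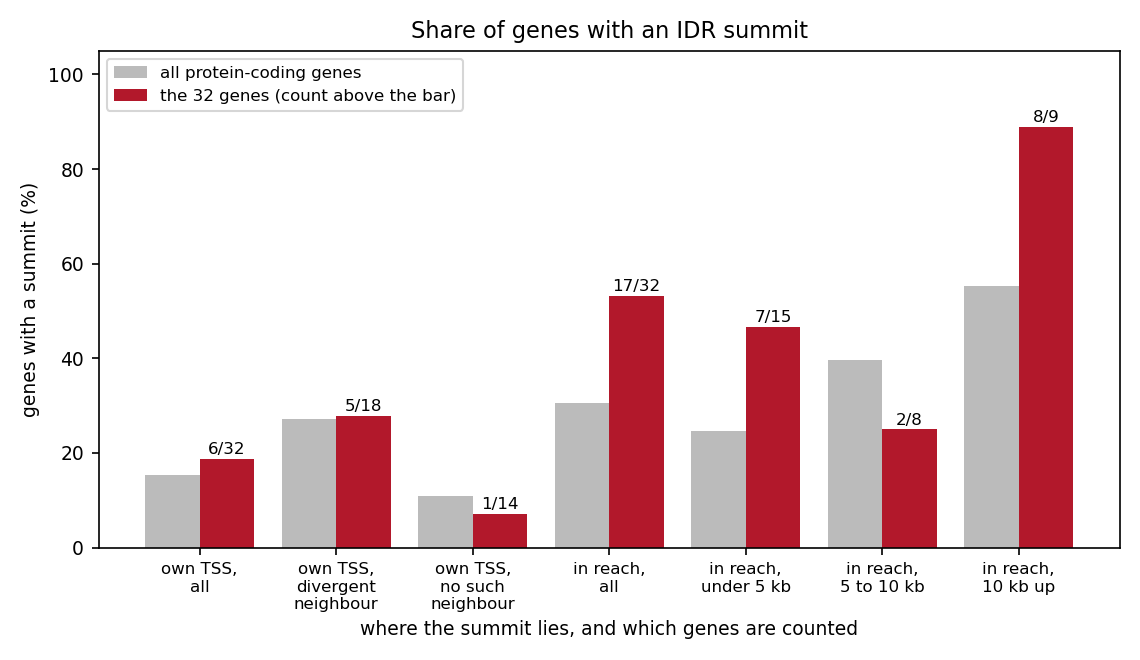
Percent of genes with an IDR summit, for all protein-coding genes (grey) and the 32 genes (red, with counts), at the gene's own TSS by promoter type and in reach by gene length. The bars at TSSs lie close together, and the largest gap is for genes of 10 kb or more (8 of 9 against 55.3%).

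Both libraries held a summit within 100 bp for 21 of the 24 peaks (87.5%), where 86.7% of all IDR peaks had both. Of these 21, 19 were higher in replicate 2, at a median ratio of 2.02 over the 21, against 1.91 over all IDR peaks. The exceptions were the Mi-2 peak (ratio 0.390) and the upstream His4r peak (0.703). Across the 21 peaks the heights had a Spearman rho of 0.742 and a Pearson r of 0.790 on the log10 scale, a description of points from the same libraries. Combined heights were close to the sum of the separate heights, at 0.990 to 1.06 times that sum for the 21 peaks.

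**Figure D4:**
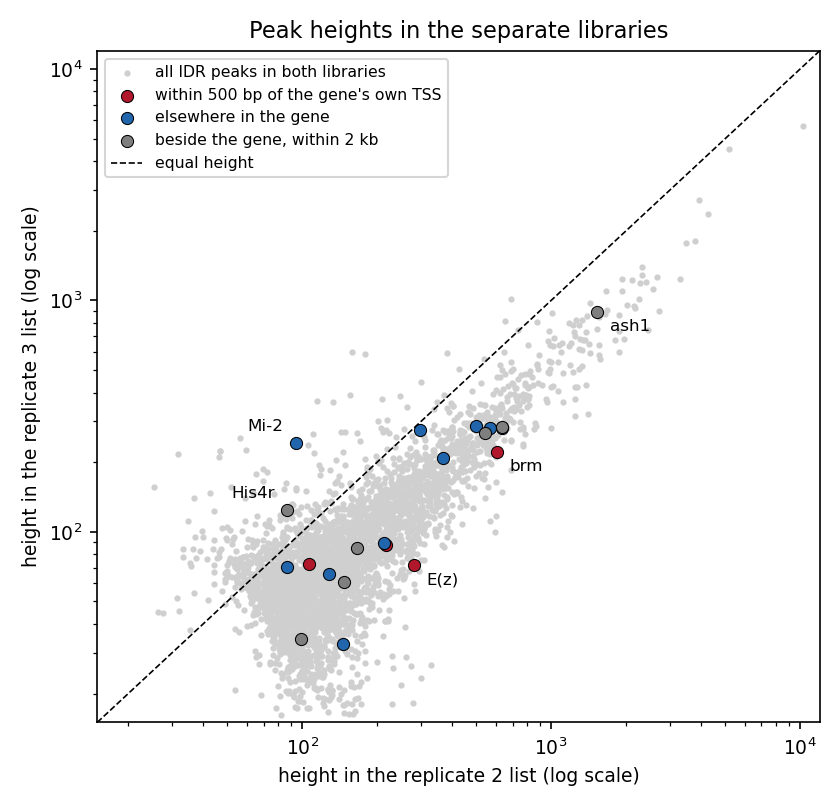
Height in the replicate 2 list against height in the replicate 3 list (both log axes) for all IDR peaks with a summit in both (grey) and for the 21 peaks of these genes (coloured by where the summit lies); the dashed line marks equal height. Of the 21, 19 lie below the line, and the Mi-2 and His4r peaks above it are named with ash1, brm and E(z).

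The 3 peaks without a replicate 3 match, those of Su(z)12, Pcl and His3.3B, were 2.33, 1.48 and 1.63 times as high in the combined list as in replicate 2 alone. Over the 430 IDR peaks without a replicate 3 match, the median of this ratio was 1.41. A missing match does not show that replicate 3 had no signal there. The 2 genes occupied at a TSS without such a match, Su(z)12 and His3.3B, were not occupied in the 4309 tallest regions of replicate 3 alone. That left 4 genes with a TSS summit, where 12.8% of all protein-coding genes had one.

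Genes with no IDR summit were not all without regions in the longer lists. Of the 15, 5 had a region in reach among the 30000 called on both libraries, while replicate 2 had one at 11 genes and replicate 3 at 4. The share of all protein-coding genes with a region in these long lists is not given here. These counts are therefore not read as a trait of the 15 genes. The closest to the IDR list was dom, which encodes the ATPase that exchanges H2Av. Its region 269 bp downstream of the TSS had a signal of 101.5 at rank 5090, with 88.8 in replicate 2 and none in replicate 3. Jarid2 followed with 85.5 at rank 6299, 25 bp upstream of its TSS, and 84.7 in replicate 2. On the other side of the limit, the lowest peaks counted were those of Su(z)2 (142.2), Pcl (148.6) and His3.3B (151.8).

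Chd1, which encodes a remodelling ATPase linked to transcription elongation, had the tallest single-library region among the 15 genes. In replicate 2 it had a region with a height of 245.2 and a rank of 898, 202 bp upstream of its TSS. Neither replicate 3 nor the list of both libraries held any region in reach of Chd1. Sfmbt had a replicate 2 region of 109.0 at rank 2842, 197 bp upstream of its TSS, and none in the list of both. Of the 4309 tallest replicate 2 regions, 104 (2.41%) had no region within 250 bp in the list of both libraries. Ranked by replicate 2 alone, 9 genes had a TSS summit: Jarid2, Sfmbt, Chd1 and dom joined and Su(z)12 left, against 16.3% of all protein-coding genes.

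pho was the only one of the 15 with regions near its start in the separate lists of both replicates. The replicate 2 region was 48.9 high at rank 8411, 206 bp upstream. That of replicate 3 was 39.7 high at rank 4759, 341 bp upstream. The list of both libraries together held no region in reach of pho. In each replicate, esc had a low region (28.9 and 20.5) just over 500 bp upstream. Sce, escl, ash2 and Acf had no region in reach in any of the 3 lists. A region missing from a list of fixed length is not evidence of no binding.

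Partner genes of the same complexes were read from 8 lists, in which 94 genes besides the 32 were matched. Of these 94, 21 had a TSS summit (22.3%, against the 15.3% of all protein-coding genes). Another 18 had summits elsewhere in reach and 55 had none, where 30.6% of all protein-coding genes had a summit in reach. The 94 genes are not split by promoter type or length here. Counts of TSS summits in the single lists, here and below, are small and are not read as differences from the 15.3%. PRC1 partners had 3 of 5, led by ph-p (9619.7 at rank 2), with l(3)73Ah at 191.2 and ph-d at 150.5. Factors that bind Polycomb response elements or chromatin boundaries had 4 of 11: Chro at 1411.0, lola at 470.3, Trl, the GAGA factor gene, at 425.2, and psq at 117.8. COMPASS and trithorax partners had 4 of 21, with MRG15, a chromodomain protein gene, at 2290.7 beside Tm1, then skd, Lpt and nej at 186.2, 145.6 and 135.1. The summits of Chro, skd and Lpt also lay at the TSS of Ssl1, Pdss2 and CG5339, in that order. Those of l(3)73Ah and lola each lay also at the TSS of an antisense RNA gene. Replicate 3 had no match for l(3)73Ah or nej.

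The INO80 and Tip60 lists gave 5 of 22, MRG15 again included, with pont and Ino80, which encode helicase subunits, at 424.0 and 395.9. Gas41 and Arp5 followed at 193.6 and 180.9. Histone chaperone genes gave 3 of 17, led by dre4 and yem at 207.8 and 198.6. ISWI, CHD and NuRD partners gave 2 of 12 (MEP-1 at 200.6 and MTA1-like at 137.3), and SWI/SNF partners 1 of 11 (Brd7-9 at 229.7). PRC2 and PR-DUB partners gave 0 of 3, and Caf1-55 was in reach only of the peak at Art3 and mRpS10 (6634.5). The summits of pont, Ino80, Gas41 and Arp5 also lay at the TSS of Sirt6, Aptx, SA1 and CG7208, in that order. Those of yem and MTA1-like lay also at the TSS of Ctl2 and Sec23. Replicate 2 had no match for Ino80, and replicate 3 none for Gas41, yem, MEP-1 or MTA1-like.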

How the data were processed

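Peak heights are the signal values the authors deposited for each region of their peak lists on dm6, and they are not scaled between libraries. The −log10 q deposited by the authors was 3.80, its highest value, for 22 of the 24 peaks. Regions, per the deposited file records, were called with a control for each library and for both together, then passed to an IDR step. Aligner, caller, versions and IDR threshold: not given in the sources used here. Lists on dm3 were not analysed, and those on dm6 were used throughout. Summits were placed on the Ensembl release 115 annotation without transposable elements, and sequence was read from release 6 of the RefSeq assembly, which holds every listed region. Heights in each library are those of the tallest region with a summit within 100 bp. Placing and matching were tested on planted summits. Python 3.11.15, numpy 2.4.6, pandas 2.3.3 and matplotlib 3.10.9 were used.

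No test was run, since there is 1 group and the genes, lists and words were chosen with earlier results of these data known. The count of divergent promoters was added after the data were examined. Every one of the 32 genes is named. Full values go to summits at a TSS and to others above the median signal, and partner lists name at most 4 genes, except that a further INO80 and Tip60 gene was added after its value was seen and 1 histone chaperone gene is counted only. In these lists 4 names were matched under another spelling and 1 was not matched. Alternatives changed the TSS window, reach, list, merging of summits, TSS set and matching distance.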

Additional observations from a re-analysis of the deposited data

How the results depend on the processing

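Of 50 counts and medians recomputed under other settings, 42 stayed within 1.5 times the value reported, or, for the median height, within the spread between the libraries. A TSS window of 200 bp left 1293 of the 2133 occupied protein-coding genes, and 4 of the 6 genes, without His3.3B and His4r. Among the 2154 tallest peaks, 3 of the 32 genes (E(z), brm and His4r), 1247 protein-coding genes and 10 partner genes were occupied at a TSS. A reach of 1 kb left 6 genes with a TSS summit, 7 with summits elsewhere only and 19 of the 32 with none. In that setting 24.9% of all protein-coding genes had a summit in reach, at a TSS or elsewhere. Without replicate 2 and without replicate 3, the genes occupied at a TSS ranged from 4 to 9, those without any summit from 11 to 18 and the partner genes from 13 to 22. Of all protein-coding genes, 12.8% and 16.3% had a TSS summit in these settings, in that order, and 27.6% and 31.7% a summit in reach. The median height of the 19 peaks described in full, 359.9, was 221.8 to 281.6 in the single-library lists, which are on their own scales. No paired analysis was possible because there is 1 group and no test. With 2 libraries and no depth in the lists, the precision of each height is unknown.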
